A study of Homo sapiens with 12 samples.

Results

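H460 is a human cell line from a large cell carcinoma of the lung, and ISP-I is isovalerylspiramycin I, a macrolide that is a main component of the antibiotic mixture carrimycin. RNA of 6 H460 libraries was compared, out of 12 libraries in the series: 3 were from non-treated cells (control) and 3 from cells given 10 µM ISP-I for 48 h, all of wild type genotype by their labels. The other 6 libraries are A549, a lung adenocarcinoma line given the same treatment, and serve here only to show where H460 differed. The paper on these data states that both lines carry homozygous mutations that inactivate KEAP1, so the wild type label does not mean an unmutated genome. The members were chosen by these labels alone, and every gene of the deposited table was considered. The labels call the controls non-treated and give no vehicle, and H460 stands here as 1 line at 1 dose and 1 time. Nothing in them says that the 3 libraries of a group came from separate cultures, so p values measure the spread between libraries, which may be technical.

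Macrolides are known for binding bacterial ribosomes, and their effects on human cells are less well described. A cultured carcinoma cell under stress typically switches on immediate-early transcription factors within minutes, secretes cytokines and growth factors, and loses the mRNAs of the cell cycle when it stops dividing. Many of these programmes are shared by very different stresses, so the text below reports which gene families moved and by how much.

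Levels are FPKM, reads scaled to gene length and library depth. Of 19973 genes listed, 13423 had a mean of at least 0.1 FPKM in the 6 libraries and were tested. Genes counted as called higher or lower when log2(FPKM + 1) changed by more than 1 with adjusted p below 0.05 in limma, p being adjusted by Benjamini-Hochberg over all genes tested. ISP-I libraries had 1409 genes called higher, 10.5% of the genes tested, and 2047 called lower, 15.2%. Over all genes the median change was -0.15 (log2). After median-of-ratios scaling, which sets the typical gene to no change, it was 0.02, and 1924 genes (14.3%) were called higher and 1435 (10.7%) lower. All 1409 higher genes were also called higher after that scaling, and all 1435 lower genes were among the 2047, so the scaling moved the split and no direction. Log2 fold changes in the text are those without the scaling, and are 0.16 below the scaled ones for the median gene. The mean level of ISP-I libraries was over 10 times that of the controls in 233 called genes and under 0.1 times in 174.

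In the plot of mean levels, called genes reach from the lowest levels to the most abundant mRNAs of the cell. Low genes rarely passed, since the added 1 FPKM draws their fold changes toward 0: in the fifth of genes with the lowest mean, 0.745% were called higher and 0.223% lower.

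**Figure D1:**
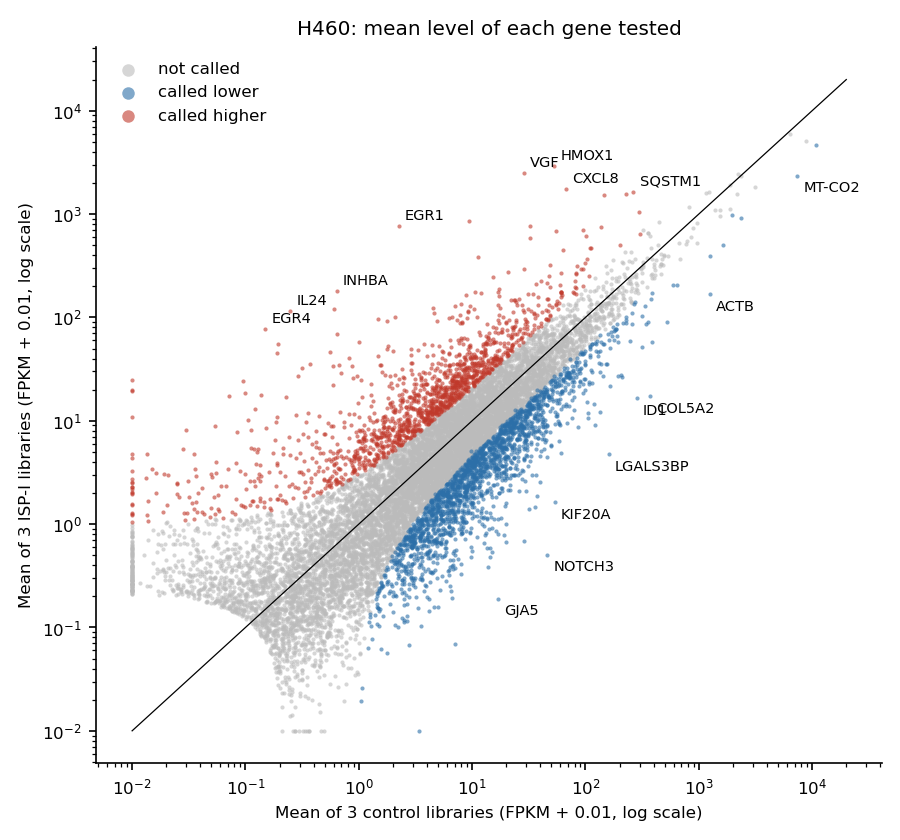
Mean FPKM of each tested gene in the 3 control libraries (x axis) and the 3 ISP-I libraries (y axis) of H460, both on log scales after adding 0.01, with genes called higher in red, called lower in blue, and the line of equal levels in black. EGR1, INHBA and IL24 sit far above the line, NOTCH3, GJA5 and KIF20A far below it, and ACTB and MT-CO2 are abundant mRNAs that were called lower.

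The libraries had 14388043 to 15188619 reads on genes in the control group and 14839238 to 17874422 in the ISP-I group. Over 8742 genes with a mean above 2 FPKM, control libraries correlated at 0.990 to 0.991 with each other and ISP-I libraries at 0.951 to 0.988. ISP-I library 3 had 722 genes more than 0.5 (log2) away from the mean of its group, against 57 and 407 in the other ISP-I libraries and 3 to 30 in the controls. Its deviations ran against gene length (r = -0.57, across genes, which are not independent) and those of ISP-I library 2 with it (r = 0.52). Calls also followed base composition: of the fifth of genes with the lowest GC content, 15.7% were called higher and 7.12% lower, and of the fifth with the highest, 7.27% and 22.6%. With the GC trend of each library removed, 1724 genes were called higher and 1505 lower, and with the length trend removed 1792 and 1587. Of 16 markers of blood, endothelial, fibroblast and other lung cells, 5 were abundant enough to test, 0 were called higher and 2 lower, CD14 and COL3A1. Their summed level was 15.3 to 17.0 FPKM in control and 4.34 to 5.45 FPKM in ISP-I libraries. Keratin genes KRT8 and KRT18 and the mesenchymal filament gene VIM were abundant in all 6 libraries, while CDH1 and EPCAM, which most epithelial carcinomas express, had at most 6 reads in any of them. Of 8 epithelial and mesenchymal markers chosen for the line itself, 6 were tested, and 0 were called higher. KRT19 and CDH2 were called lower (log2 fold changes -1.08 and -1.2), 33.3% against 15.2% of all genes. After median-of-ratios scaling 1 of these markers was higher and 0 were lower. Counting was not stated to use strand, so reads of overlapping antisense genes cannot be told apart, and near-identical genes (HSPA1A and HSPA1B, the MT1 genes, clustered histone genes, tubulins) may have shared reads.

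The named genes below follow a rule by size of change and by list, and a few more were added after their values were seen. In all 200 genes named here that were called higher or lower, every ISP-I library lay on the same side of every control library; over all genes tested, 3974 genes (29.6%) lay above and 5790 (43.1%) below without overlap. The highest adjusted p among these 200 genes was 0.0166. Library values are given in the order control 1 to 3 and ISP-I 1 to 3, and ± after a log2 fold change is its standard error.

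Leaving aside genes that averaged under 5 FPKM, the largest rise was that of EGR1 (chr5:138465479-138469303, hg38), an immediate-early zinc finger transcription factor, which went from 1.99, 2.498 and 2.23 to 796, 825 and 662 FPKM (log2 fold change 7.87, SE 0.13, adjusted p = 3.5e-08). INHBA (chr7:41667168-41705834), the beta A chain of activin A, followed from 0.596, 0.596 and 0.697 to 158, 249 and 133 FPKM (log2 fold change 6.75, SE 0.21, adjusted p = 1.7e-07). IL24, a cytokine of the interleukin-10 family studied for its action against tumour cells, rose from 0.281, 0.233 and 0.203 to 118, 100.6 and 127 FPKM (log2 fold change 6.55 ± 0.12). VGF (chr7:101162509-101165569), a precursor of secreted neuropeptides, reached the range of the most abundant mRNAs, from 24.8, 30.7 and 30.6 to 2404, 1938 and 3176 FPKM (log2 fold change 6.38 ± 0.21). PPP1R15A (GADD34), which recruits a phosphatase to eIF2 alpha and so restores translation after stress, rose from 8.32, 9.69 and 10.3 to 788, 721 and 1044 FPKM (log2 fold change 6.34 ± 0.17). In each of these genes all 3 ISP-I libraries were far above all 3 controls.

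Other rises of this size joined unrelated functions. ARC, an immediate-early gene of neurons, rose from 0.441, 0.594 and 0.74001 to 116, 103 and 145 FPKM (log2 fold change 6.25 ± 0.15). WNT9A, a Wnt ligand, rose from 0.191, 0.214 and 0.151 to 60.7, 48.9 and 56.8 FPKM (log2 fold change 5.57 ± 0.12). CYP1A1, the classical target of the aryl hydrocarbon receptor, rose from 0.538, 0.725 and 0.639 to 70.4, 68.8 and 66.7 FPKM (log2 fold change 5.41 ± 0.11). ALOXE3, an epidermal lipoxygenase of the skin barrier, rose from 0.166, 0.158 and 0.214 to 44.2, 47.6 and 43.5 FPKM (log2 fold change 5.29 ± 0.10). HMOX1, which breaks down heme, rose from 49.97, 57.8 and 51.9 to 2668, 2414 and 3636 FPKM (log2 fold change 5.72 ± 0.19) and gained the most FPKM of any called gene. The first 4 of these genes were under 1 FPKM in every control library, while HMOX1 was already well expressed there.

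The largest fall was that of NOTCH3 (chr19:15159038-15200995), a Notch receptor, from 42.9, 46.3 and 48.5 to 0.476, 0.485 and 0.5301 FPKM (log2 fold change -4.97, SE 0.11, adjusted p = 3.8e-08). LGALS3BP, a secreted glycoprotein that binds galectins, fell from 153, 172 and 155 to 5.36, 4 and 4.96 FPKM (log2 fold change -4.81 ± 0.13). KIF20A, a mitotic kinesin needed for cytokinesis, fell from 54.7, 53.4 and 52.3 to 1.61, 1.73 and 1.49 FPKM (log2 fold change -4.39 ± 0.10). COL5A2 (chr2:189031898-189225312), a chain of type V collagen, fell from 374, 367 and 372 to 18.6, 17.9 and 15.3 FPKM (log2 fold change -4.35 ± 0.12). All 3 ISP-I libraries of these genes were close to each other and far under the controls.

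Other falls of this size came from genes of various functions. GJA5, the gap junction protein connexin 40, fell from 16.7, 18.4 and 15.7 to 0.153, 0.201 and 0.184 FPKM (log2 fold change -3.92 ± 0.11). NES, the intermediate filament nestin of precursor cells, fell from 33.1, 36.8 and 36.9 to 1.92, 1.197 and 1.27 FPKM (log2 fold change -3.9 ± 0.14). SCARA5, a scavenger receptor that takes up ferritin, fell from 32.3, 32.3 and 30.5 to 1.48, 1.41 and 1.29 FPKM (log2 fold change -3.77 ± 0.10). OLFML2A, a secreted olfactomedin domain protein, fell from 27.8, 29.3 and 28.3 to 0.735, 0.647 and 0.667 FPKM (log2 fold change -4.13 ± 0.10). SSBP4 and TCF19 followed with log2 fold changes of -3.77 and -3.65. The plot of the largest changes shows that no library of either group crossed into the range of the other.

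**Figure D2:**
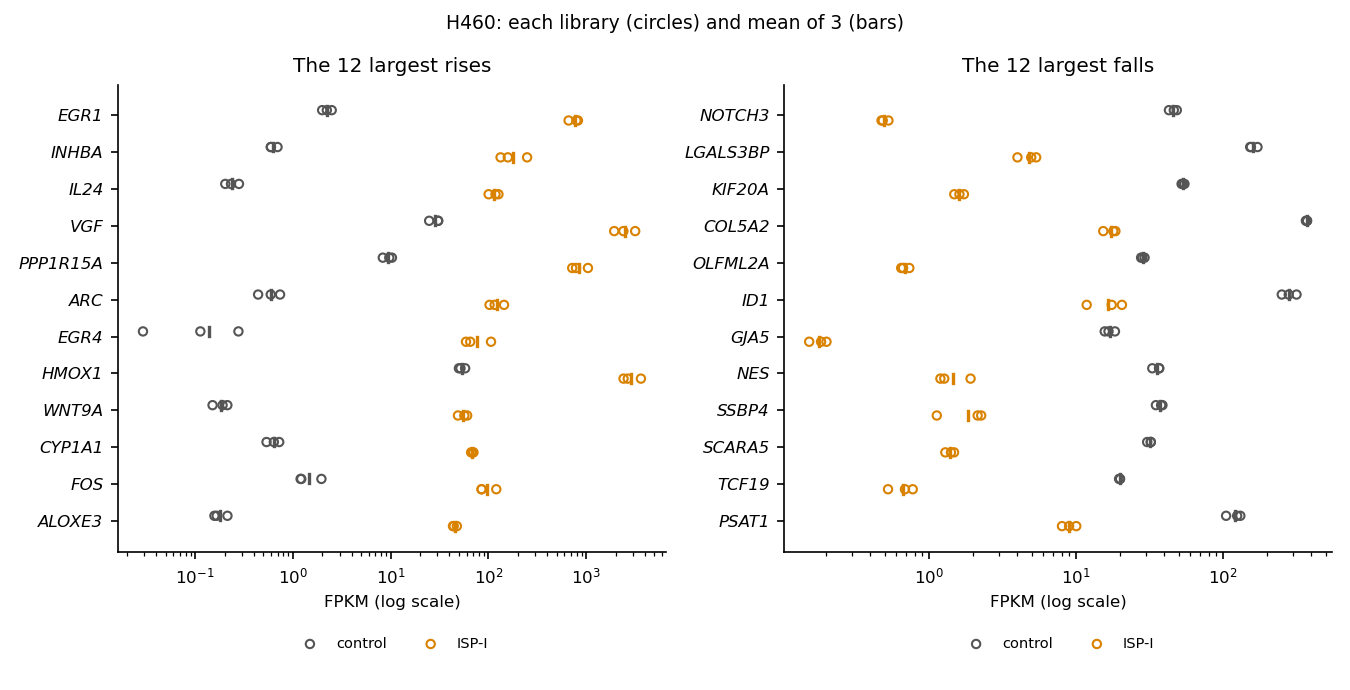
FPKM of the 12 genes with the largest rise (left) and the 12 with the largest fall (right) in each H460 library (circles, log scale), controls in grey and ISP-I in orange, with short bars at the mean of 3. In every gene shown the 3 ISP-I circles lie apart from the 3 control circles; EGR4 controls spread the most because they are at only 0.0293 to 0.277 FPKM.

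In amount of mRNA, the genes that gained the most included HMOX1, VGF, CXCL8, MT2A and SQSTM1. The genes that lost the most were mRNAs of the mitochondrial genome and of actin. ACTB, cytoskeletal beta actin and a common reference gene in qPCR, fell from 1231, 1352 and 1147 to 188, 159.9 and 158 FPKM (log2 fold change -2.88 ± 0.16). ACTG1, its gamma counterpart, fell from 1468, 1733 and 1714 to 541, 440.1 and 521 FPKM (log2 fold change -1.71 ± 0.18). In both genes the lowest control was at more than 2 times the highest ISP-I library.

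Some genes went from no reads to clear expression. With at most 3 reads over the 3 controls and at least 10 in each ISP-I library, 159 genes counted as switched on, 73 of them with 0 control reads. In the opposite direction there were 23 genes, 4 of them with 0 ISP-I reads. NEURL3, a ubiquitin ligase, had 0 reads in each control and 1024, 780 and 1179 reads in the ISP-I libraries, which is at least 896-fold higher against a floor of 3 reads over the group. CD300LB, an immune receptor of the CD300 family, had 0 control reads and 970, 927 and 770 ISP-I reads, at least 801-fold. ARL14, a small GTPase, and PRSS22, a secreted serine protease, were at least 371-fold and 383-fold higher against the same floor. CD22, a lectin of B cells, is given by an interval in place of a floor. It had 1 control read and 540, 546 and 372 ISP-I reads, a ratio of 1314 after scaling to library size, with a 95% counting interval from 235 to 51914. The lymphocyte gene CD3E had at most 4 reads in any H460 library. NRGN, a calmodulin-binding protein of neurons, had 63, 59 and 62 control reads and 0 in all ISP-I libraries, at least 68.1-fold lower. Intervals and floors cover counting error only.

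Of the lists with over 10 tested members, immediate-early factors had the largest share called higher. These are AP-1 subunits (FOS and JUN families), EGR factors and their fast-responding companions, which cells make within minutes of growth factor or stress signals and which are normally short-lived. Of 26 tested members, 21 were called higher and 0 lower, 80.8% against the 10.5% of all genes. Their median log2 fold change was 2.61 above that of all genes, and it was 2.52, 2.52 and 2.73 in the ISP-I libraries taken 1 by 1. The serum response factor binding motif known as the CArG box is a classical element of the EGR1 promoter. The stretch of the EGR1 promoter 115 to 65 bases before its start (chr5:138465364-138465413, forward strand, RefSeq, GRCh38.p14) is shown because it holds both CArG box matches of the gene with the largest rise, in capitals:
EGR1: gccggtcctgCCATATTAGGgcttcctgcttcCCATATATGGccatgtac
The box was searched on both strands in windows from 250 bases before to 50 after the start, which 10734 tested genes had. It was found in 1.02% of them and in 2 of 19 windows of the immediate-early list. A match describes these letters only.

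FOS rose from 1.1998, 1.22 and 1.96 to 85.3, 85.1 and 120.5 FPKM (log2 fold change 5.31 ± 0.18). JUN, its main partner, rose from 10.7, 12.1 and 11.3 to 367, 375 and 419 FPKM (log2 fold change 4.97 ± 0.12). FOSB rose from 0.225, 0.308 and 0.387 to 27.9, 32.7 and 35.99 FPKM (log2 fold change 4.66 ± 0.13), and FOSL1, an AP-1 subunit already expressed in the controls, rose from 51.5, 53.6 and 60.2 to 687, 667 and 711 FPKM (log2 fold change 3.62 ± 0.13). In these AP-1 genes the 3 ISP-I libraries were within a narrow range. ATF3, a stress-induced partner of JUN, rose from 1.27, 1.04 and 0.814 to 21.8, 23.6 and 29.02 FPKM (log2 fold change 3.65 ± 0.14). IER3, an immediate-early survival factor, rose from 34.6, 37.7 and 24.9 to 790.4, 721 and 802 FPKM (log2 fold change 4.55 ± 0.17). The letters TGANTCA, the binding site of AP-1, were in 8.17% of windows of genes called higher (93 of 1139), in 3.2% of those called lower (53 of 1655) and in 4.85% of all.

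All EGR family members rose. EGR2 rose from 0.0754, 0.0892 and 0.0182 to 17.2, 17.6 and 17.5 FPKM (log2 fold change 4.12 ± 0.10). EGR3 rose from 0.0414, 0.0392 and 0.0533 to 3.99, 4.402 and 3.64 FPKM (log2 fold change 2.26 ± 0.09). EGR4 rose from 0.0293, 0.277 and 0.113 to 65.2, 59.05 and 106 FPKM (log2 fold change 6.05 ± 0.21). EGR4 was the member with the most uneven control values, all of them low. KLF factors, zinc finger proteins that often respond to the same signals, had 8 of 15 tested members called higher (53.3%, against 10.5% of all genes). None of them was called lower, and the median was 1.19 above that of all genes. KLF10, a TGF-beta inducible member, rose from 14.9, 16.4 and 14.8 to 254, 299 and 186 FPKM (log2 fold change 3.89 ± 0.18). KLF6 rose from 7.11, 7.84 and 7.08 to 94.99, 98.3 and 92.3 FPKM (log2 fold change 3.53 ± 0.11), and KLF5 from 2.27, 2.18 and 2.92 to 24.4, 30.6 and 24.2 FPKM (log2 fold change 2.99 ± 0.14). KLF4, a factor of epithelial differentiation, changed by 1.31.

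The NF-kB system includes the subunits that enter the nucleus on inflammatory signals and the inhibitors they induce, which shut the signal off. Of 27 members, all tested, 15 were called higher (55.6%, against 10.5% of all genes) and 1 lower, and the median was 1.53 above that of all genes. Of 25 tested cytokines and chemokines, from 32 listed, 9 were called higher (36%, against 10.5% of all genes) and 1 lower. After median-of-ratios scaling, which tested 26, the counts were 12 and 0. Promoter stretches of 3 of the risers (RefSeq, GRCh38.p14) are shown because they hold matches to the NF-kB site, in capitals. They lie at chr4:74099254-74099283 on the reverse strand for the chemokine gene CXCL2, chr6:137867187-137867216 on the forward strand for TNFAIP3 and chr2:60881516-60881545 on the forward strand for REL, each written in the direction of its gene:
CXCL2: ctggagctccGGGAATTTCCCtggcccggg
TNFAIP3: actttGGAAAGTCCCgtGGAAATCCCCggg
REL: acgtcagccgcGGGAAATTCCCctcccgcc
The site was found on either strand in 6.47% of all windows, in 8 of 24 windows of the NF-kB list (33.3%) and in 9 of 19 of the cytokine list (47.4%). It was in 7.46% of windows of all genes called higher and 6.65% of those called lower.

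Among the subunits, RELB, a partner of p52, rose from 1.41, 1.99 and 1.96 to 51.1, 45.3 and 60.5 FPKM (log2 fold change 4.26 ± 0.15). NFKB2, which encodes p52, rose from 16.2, 18.2 and 16.8 to 169, 151 and 167 FPKM (log2 fold change 3.17 ± 0.12). REL rose from 0.591, 0.415 and 0.688 to 6.32, 9.17 and 5.198 FPKM (log2 fold change 2.31 ± 0.18). Inhibitors and brakes rose as well: TNFAIP3 (A20), a ubiquitin editing enzyme, went from 19.5, 19.6 and 22.4 to 289, 302 and 229.7 FPKM (log2 fold change 3.67 ± 0.14). NFKBIA, which holds the subunits in the cytoplasm, rose from 16.4, 20.55 and 22.2 to 80.98, 75.1 and 109 FPKM (log2 fold change 2.1 ± 0.17). Of the adaptors, TRAF1 rose from 0.543, 0.7502 and 0.6898 to 39.5, 32.8 and 32.2 FPKM (log2 fold change 4.43 ± 0.12), and the apoptosis inhibitor BIRC3 from 0.314, 0.193 and 0.304 to 10.3, 16.3 and 7.42 FPKM (log2 fold change 3.22 ± 0.23). BIRC3 had its highest ISP-I value in library 2 and its lowest in library 3, a spread that its groups' distance exceeded. TNFAIP2 was the exception and fell from 80.5, 89.6 and 96.9 to 26.2, 20.2 and 25.05 FPKM (log2 fold change -1.86 ± 0.14).

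CXCL8 (chr4:73740541-73743716), the neutrophil attractant interleukin-8, rose from 74.8, 63.96 and 62.1 to 1596, 1792 and 1878 FPKM (log2 fold change 4.69 ± 0.16). CXCL2, another neutrophil attractant, rose from 31.3, 31.8 and 33.99 to 489.7, 399.8 and 860.3 FPKM (log2 fold change 4.05 ± 0.26), with its highest value in ISP-I library 3. IL1A, an alarm cytokine, rose from 3.14, 2.68 and 2.86 to 52.4, 55.99 and 40.4 FPKM (log2 fold change 3.69 ± 0.14). Members of another branch, the interleukin-6 family, rose too. IL11 went from 0.285, 0.393 and 0.326 to 8.71, 7.44 and 13.1 FPKM (log2 fold change 2.98 ± 0.18), and LIF, which was already clearly expressed, from 46.4, 46.3 and 45.8 to 212, 207 and 233 FPKM (log2 fold change 2.21 ± 0.12).

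Growth factor signalling through the MAP kinases is normally held in check by phosphatases (DUSP) and Sprouty proteins that the pathway itself induces. Of 19 members, all tested, 10 were called higher (52.6%, against 10.5% of all genes) and 1 lower, with a median 1.26 above that of all genes. DUSP10, which acts on the stress kinases p38 and JNK, rose from 1.205, 0.932 and 0.855 to 56.9, 68.02 and 49.8 FPKM (log2 fold change 4.88 ± 0.14). SPRY2 rose from 6.04, 6.64 and 7.06 to 99.4, 97.4 and 103 FPKM (log2 fold change 3.74 ± 0.11). DUSP8, another phosphatase for stress kinases, rose from 0.434, 0.584 and 0.663 to 9.37, 9.56 and 7.72 FPKM (log2 fold change 2.66 ± 0.12). DUSP9 moved the other way, from 5.17, 6.23 and 5.599 to 0.424, 0.499 and 0.535 FPKM (log2 fold change -2.16 ± 0.11). Of the 13 EGF family ligands and ERBB receptors tested, 4 were higher (30.8%, against 10.5% of all genes) and 2 lower (15.4%, against 15.2%). Without ISP-I library 1 or 2, 1 was lower. The ligands AREG and HBEGF rose from 0.635, 0.962 and 0.818 to 33.3, 38.8 and 47.98 FPKM (log2 fold change 4.5 ± 0.15) and from 2.25, 3.699 and 3.14 to 23.6, 22.8 and 21.7 FPKM (log2 fold change 2.57 ± 0.15). The receptors split: EGFR rose from 3.61, 3.67 and 4.21 to 11.02, 12.9 and 7.99 FPKM (log2 fold change 1.25 ± 0.17), while ERBB2 fell from 6.19, 6.69 and 7.21 to 0.981, 0.902 and 0.823 FPKM (log2 fold change -2.02 ± 0.11).

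TGF-beta superfamily genes went both ways, with 7 of 27 tested members called higher and 7 lower (7 and 4 after median-of-ratios scaling). Each share was 25.9%, against 10.5% higher and 15.2% lower over all genes. The median was -0.02 relative to all genes, a sign that depended on the setting. The rises included activin chain INHBA, its antagonist FSTL3 from 28.2, 32.6 and 31.4 to 90.4, 64.4 and 113 FPKM (log2 fold change 1.47 ± 0.20) and the stress cytokine GDF15 from 6.46, 8.58 and 8.97 to 53.5, 45.9 and 83.4 FPKM (log2 fold change 2.75 ± 0.22). The falls included readouts of BMP signalling. ID1, an inhibitor of differentiation factors, fell from 280.4, 317 and 251 to 17.5, 11.8 and 20.6 FPKM (log2 fold change -4.04 ± 0.20). ID3 fell from 175, 213 and 188 to 21.2, 21.2 and 38.2 FPKM (log2 fold change -2.84 ± 0.22). SMAD6, an inhibitory SMAD, fell from 3.501, 3.56 and 3.48 to 0.124, 0.105 and 0.0473 FPKM (log2 fold change -2.05 ± 0.08). In none of these did the groups overlap.

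The Notch list had 4 of 24 tested members higher (16.7%, against 10.5% of all genes) and 3 lower (12.5%, against 15.2%), and 6 and 2 after median-of-ratios scaling. Both shares were near those of all genes. Beside NOTCH3, the ligand gene DLL3 fell from 2.68, 2.97 and 3.999 to 0.491, 0.321 and 1.42 FPKM (log2 fold change -1.31 ± 0.22), while NRARP, a target and brake of Notch signalling, rose from 2.61, 3.09 and 3.13 to 37.5, 32.01 and 38.9 FPKM (log2 fold change 3.23 ± 0.12) and HES4 from 7.46, 7.302 and 8.16 to 40.1, 25.4 and 64.6 FPKM (log2 fold change 2.26 ± 0.28). ISP-I library 3 was the highest of its group in both DLL3 and HES4. Of 30 tested Wnt genes, 3 were higher and 6 lower, near the shares of all genes (4 and 4 after the scaling). LGR4, a receptor for R-spondins, fell from 22, 16.8 and 19.3 to 1.67, 1.59 and 1.23 FPKM (log2 fold change -3.03 ± 0.14). LRP5, a Wnt co-receptor, fell from 19.6, 22.3 and 22.9 to 4.398, 2.89 and 3.04 FPKM (log2 fold change -2.36 ± 0.15). The ligand WNT5A fell from 8.94, 7.704 and 8.895 to 1.36, 1.35 and 1.102 FPKM (log2 fold change -2.07 ± 0.11), against the rise of WNT9A.

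ATF4 and CHOP are the transcription factors of the integrated stress response, which normally raise amino acid synthesis, transport and tRNA charging together. Here the list split, with 8 of 32 tested members called higher (25%, against 10.5% of all genes) and 7 lower (21.9%, against 15.2%). After median-of-ratios scaling 10 were higher and 5 lower. DDIT3, which encodes CHOP, rose from 1.12, 1.66 and 1.95 to 20.3, 17.7 and 49.9 FPKM (log2 fold change 3.42 ± 0.34), most in ISP-I library 3. SLC3A2, a subunit of amino acid transporters, rose from 102, 117 and 91.9 to 343, 293 and 459 FPKM (log2 fold change 1.79 ± 0.19). ATF4 itself went from 172, 179.8 and 174 to 289.8, 257 and 522 FPKM (log2 fold change 0.94 ± 0.25) and was not called, its fold change being under 2; it passed after median-of-ratios scaling (1.23) and without ISP-I library 1 (1.06) or 2 (1.14). The serine synthesis enzymes fell: PSAT1 from 131, 125 and 105 to 8.04, 8.98 and 10.1 FPKM (log2 fold change -3.6 ± 0.13), PSPH from 6.47, 8.44 and 6.78 to 1.07, 1.11 and 1.24 FPKM (log2 fold change -1.93 ± 0.12) and PHGDH from 17.2, 20.9 and 17.1 to 5.402, 4.85 and 5.55 FPKM (log2 fold change -1.63 ± 0.12). DDIT4, an inhibitor of mTORC1, fell from 127, 119.7 and 111 to 11.4, 10.03 and 22.05 FPKM (log2 fold change -3.04 ± 0.25). Of the 20 cytosolic tRNA synthetases, 0 were called higher and 3 lower (15%, against 15.2% of all genes). QARS1 fell from 42.3, 48.6 and 45.8 to 14.8, 12.03 and 15.3 FPKM (log2 fold change -1.64 ± 0.13). EPRS1 fell from 57.1, 36.2 and 46.2 to 17.9, 23.9 and 9.57 FPKM (log2 fold change -1.45 ± 0.30).

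The unfolded protein response raises chaperones and degradation factors when proteins misfold in the endoplasmic reticulum. Of 31 members, all tested, 8 were called higher (25.8%, against 10.5% of all genes) and 2 lower (6.45%, against 15.2%). The counts were 11 and 1 after median-of-ratios scaling, and the median was 0.56 above that of all genes. The ER stress element (ERSE) is made of CCAAT and CCACG separated by 9 bases. It was found in 17 of the 10734 windows (0.158%) and in 7 of the 28 windows of this list (25%). Of these 7 genes, 3 were called higher, and HSPA5, CANX, CALR and CRELD2 were not called. Stretches of 2 promoters that hold it are shown, with the whole element in capitals (RefSeq, GRCh38.p14). They lie at chr22:28800597-28800626 on the reverse strand for XBP1 and chr12:103930315-103930344 on the forward strand for HSP90B1, each written in the direction of its gene:
XBP1: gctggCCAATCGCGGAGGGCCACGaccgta
HSP90B1: tgggtgCGTGGTGCGGCGCGATTGGtgggt
In HSP90B1 the element stands on the opposite strand. XBP1, the transcription factor of the IRE1 branch, rose from 25.4, 24.3 and 22.6 to 133, 116 and 191 FPKM (log2 fold change 2.53 ± 0.18). ERN1, which encodes IRE1 itself, rose from 1.64, 1.55 and 1.83 to 7.31, 8.41 and 6.302 FPKM (log2 fold change 1.64 ± 0.13). DNAJB9, a co-chaperone that is a target of XBP1, rose from 2.82, 2.75 and 3.07 to 39.96, 43.9 and 45.03 FPKM (log2 fold change 3.5 ± 0.11). HSP90B1, the ER form of HSP90, rose from 69.7, 50.8 and 63.6 to 169, 238 and 108 FPKM (log2 fold change 1.41 ± 0.27). HSPA5 (BiP), the central ER chaperone, went from 376, 364 and 327 to 736, 696 and 543 FPKM (log2 fold change 0.88 ± 0.18) and its fold change stayed under 2, though it passed after median-of-ratios scaling (1.17) and without ISP-I library 3 (1.01). SDF2L1, another target of this response, fell from 58.5, 65.4 and 51.7 to 20.8, 13.9 and 31.6 FPKM (log2 fold change -1.43 ± 0.26).

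Of 27 tested cytosolic heat shock genes, 1 was called higher (3.7%, against 10.5% of all genes) and 6 lower (22.2%, against 15.2%). After median-of-ratios scaling 3 were higher and 5 lower. HSPA1A, the inducible HSP70, fell from 108, 115 and 183 to 9.77, 8.97 and 17.8 FPKM (log2 fold change -3.39 ± 0.28). HSPA1B fell from 102, 97.7 and 118 to 10.6, 10.2 and 14.5 FPKM (log2 fold change -3.08 ± 0.16), though reads of this near-identical pair may have been divided between them. The constitutive HSPA8 fell from 670.4, 637 and 599 to 226, 195 and 196 FPKM (log2 fold change -1.62 ± 0.15). HSPB8, a small heat shock protein that works with BAG3 in selective autophagy, was the member that rose, from 32.6, 32.9 and 27.6 to 169.7, 159.6 and 179 FPKM (log2 fold change 2.42 ± 0.13).

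Metallothioneins bind zinc and other metals and are induced through metal response elements. Of 25 tested genes of metallothioneins and zinc transport, from 35 listed, 5 were called higher (20%, against 10.5% of all genes). The 3 called lower were 12%, against 15.2%. Without ISP-I library 3 the counts were 6 and 5, and after median-of-ratios scaling 6 and 2. The stretch of the MT2A promoter 175 to 40 bases before its start (chr16:56608409-56608543, forward strand) and a stretch of SLC30A1 (chr1:211579192-211579221, reverse strand, written in the direction of the gene; RefSeq, GRCh38.p14) are shown because the most abundant member and the zinc exporter both rose. Capitals mark metal response elements, TGCACNC or TGCGCNC on either strand:
MT2A: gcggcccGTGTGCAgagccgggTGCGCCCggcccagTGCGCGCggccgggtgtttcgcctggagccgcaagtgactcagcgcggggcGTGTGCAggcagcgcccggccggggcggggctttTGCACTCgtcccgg
SLC30A1: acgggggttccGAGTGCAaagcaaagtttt
The element is short and was in 38.6% of all windows and in 9 of 20 windows of this list, while MT2A had 5 matches in the stretch shown. MT2A rose from 133, 149 and 151 to 1356, 1183 and 2082 FPKM (log2 fold change 3.36 ± 0.23). MT1G rose from 0.463, 0.614 and 1.52 to 21.8, 25.02 and 54.4 FPKM (log2 fold change 4.14 ± 0.34) and MT1F from 0.638, 0.818 and 0.5798 to 8.46, 8.14 and 19.8 FPKM (log2 fold change 2.86 ± 0.29), both with their highest value in ISP-I library 3. SLC30A1, which exports zinc from the cell, rose from 12.7, 10.03 and 12.9 to 168, 206 and 147 FPKM (log2 fold change 3.75 ± 0.16). SLC39A8, an importer of zinc and manganese, fell from 21.3, 15.1 and 18.6 to 5.06, 5.105 and 4.67 FPKM (log2 fold change -1.69 ± 0.14).

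Lysosomes and autophagy shared some rises. Lysosomal hydrolases and membrane proteins split, with 9 of 52 tested members higher (17.3%, against 10.5% of all genes) and 12 lower (23.1%, against 15.2%). After median-of-ratios scaling 11 were higher and 8 lower. The median was 0.03 above that of all genes, a sign that depended on the setting. TPP1, a peptidase, rose from 1.11, 1.34 and 1.36 to 12.8, 16.7 and 12.3 FPKM (log2 fold change 2.71 ± 0.14), and the sialidase NEU1 from 8.15, 9.15 and 7.75 to 53.9, 48.2 and 64.4 FPKM (log2 fold change 2.59 ± 0.14). The calcium channel MCOLN1 rose from 5.43, 6.05 and 5.65 to 20.6, 18.8 and 24.4 FPKM (log2 fold change 1.72 ± 0.13). GM2A and LIPA, a cofactor and an enzyme of lipid breakdown, fell, LIPA from 23.1, 22.9 and 18.1 to 4.14, 3.45 and 2.797 FPKM (log2 fold change -2.33 ± 0.15) and GM2A with a log2 fold change of -2.73. The proton pump that acidifies lysosomes (V-ATPase) had 8 of 21 tested subunits higher (38.1%, against 10.5% of all genes) and 1 lower (4.76%, against 15.2%). Its median was 0.44 above that of all genes. ATP6V1D rose from 10.4, 8.12 and 10.1 to 39.1, 40.7 and 45.6 FPKM (log2 fold change 2.03 ± 0.13) and ATP6V0D1 from 23.3, 25.97 and 22.2 to 85.5, 78.3 and 85.7 FPKM (log2 fold change 1.76 ± 0.12), while ATP6V0E2 fell from 8.22, 9.74 and 9.13 to 2.45, 1.89 and 2.36 FPKM (log2 fold change -1.63 ± 0.12).

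Of 47 autophagy genes, all tested, 12 were called higher (25.5%, against 10.5% of all genes) and 3 lower (6.38%, against 15.2%). After median-of-ratios scaling 15 were higher and 2 lower. The ATG8 proteins that decorate autophagosomes included GABARAPL1, which rose from 3.43, 3.98 and 3.89 to 54.98, 50.6 and 60.8 FPKM (log2 fold change 3.56 ± 0.12), and MAP1LC3B, which rose from 10.3, 9.999 and 7.81 to 46.8, 47.6 and 44.7 FPKM (log2 fold change 2.2 ± 0.13). SQSTM1 (p62), the receptor for ubiquitinated cargo, rose from 245, 279 and 271 to 1641, 1369.7 and 1898 FPKM (log2 fold change 2.61 ± 0.19). WIPI2, which acts at the forming membrane, fell from 8.52, 8.82 and 8.07 to 2.51, 1.998 and 2.38 FPKM (log2 fold change -1.53 ± 0.11). The letters CACGTG, an E-box bound by TFEB and MYC among others, were in 9.99% of all windows, 10 of 32 windows of the lysosome list, 4 of 15 of the V-ATPase list, 2 of 42 of the autophagy list and 18 of 49 of the list of nucleolar ribosome biogenesis (36.7%).

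Genes of lipid synthesis had more members called lower than higher. Of 26 tested cholesterol genes, 2 were called higher and 8 lower, 30.8% against 15.2% of all genes (2 and 5 after median-of-ratios scaling). SREBF1, which encodes a master factor of lipid synthesis, fell from 26.7, 30.2 and 30.9 to 6.87, 5.09 and 6.17 FPKM (log2 fold change -2.11 ± 0.13). Enzymes of the early steps of cholesterol synthesis went the other way: HMGCS1 rose from 5.85, 5.02 and 5.35 to 44.1, 56.6 and 41.4 FPKM (log2 fold change 2.91 ± 0.14) and IDI1 from 10.2, 7.85 and 7.04 to 21.2, 28.01 and 22.1 FPKM (log2 fold change 1.41 ± 0.16). Of 26 fatty acid genes, 2 were higher (7.69%, against 10.5% of all genes) and 8 lower (30.8%, against 15.2%). After the scaling 3 were higher and 5 lower. The desaturases SCD and SCD5 fell from 155, 157 and 155 to 40.1, 34.7 and 30.8 FPKM (log2 fold change -2.12 ± 0.13) and from 4.65, 5.29 and 4.65 to 0.529, 0.2696 and 0.685 FPKM (log2 fold change -1.98 ± 0.13). ACLY, which makes cytosolic acetyl-CoA, fell from 93.6, 100.1 and 102 to 39.8, 33.9 and 29.05 FPKM (log2 fold change -1.51 ± 0.14), and the elongase ELOVL7 rose from 0.203, 0.221 and 0.196 to 5.07, 6.39 and 5 FPKM (log2 fold change 2.42 ± 0.11).

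Glycolysis and hypoxia genes had 3 of 35 tested members called higher (8.57%, against 10.5% of all genes) and 12 lower (34.3%, against 15.2%). After median-of-ratios scaling 4 were higher and 10 lower. LDHA, lactate dehydrogenase A, fell from 289, 264 and 224 to 91.1, 80.2 and 85.1 FPKM (log2 fold change -1.58 ± 0.14). PGAM1, a glycolytic mutase, fell from 355, 378 and 338 to 91.8, 76.3 and 99.9 FPKM (log2 fold change -1.99 ± 0.15). SLC16A3, the lactate exporter MCT4, fell from 96.03, 106 and 111 to 14.5, 11.3 and 19.96 FPKM (log2 fold change -2.73 ± 0.19). ADM, the secreted peptide adrenomedullin and a common hypoxia target, rose from 4.27, 6.09 and 4.99 to 51.1, 51.2 and 57.6 FPKM (log2 fold change 3.16 ± 0.14).

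Mitochondrially encoded mRNAs had 5 of 13 called lower (38.5%, against 15.2% of all genes) and 0 higher. After median-of-ratios scaling 3 were lower. MT-CO2, a core subunit of complex IV, fell from 7385, 7631 and 6981 to 2439, 2146 and 2460.2 FPKM (log2 fold change -1.64 ± 0.24). MT-ND5, of complex I, fell from 2354, 2320.2 and 2400.1 to 999, 940.4 and 779 FPKM (log2 fold change -1.39 ± 0.20). MT-CO1 fell from 11529, 11396 and 9752 to 5138, 4684 and 4207 FPKM (log2 fold change -1.22 ± 0.28), and its fold change was under 2 after that scaling. These are among the most abundant mRNAs in the cell, and their falls were the largest in absolute FPKM.

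Ribosomal and respiratory chain genes depended on ISP-I library 3. Of 87 tested cytosolic ribosomal protein genes, 3 were called lower and 0 higher, with a median 0.29 below that of all genes. Without ISP-I library 3, 24 were called lower and the median was 0.61 below. In the single libraries the median relative to all genes was -0.55, -0.63 and 0.37, so library 3 stood on the other side of 0. Mitochondrial ribosomal proteins had 12 of 78 called lower (15.4%) and nuclear respiratory chain subunits 11 of 78 (14.1%), both near the 15.2% of all genes. Without library 3 these counts were 23 and 28. For the respiratory chain the count was 6 without ISP-I library 1 or 2. After median-of-ratios scaling the latter lists had 5 and 6 called lower. With the length trend of each library removed, 2, 7 and 7 members of the 3 lists were called lower. RPL22L1 fell from 37.01, 32.97 and 25.9 to 7.99, 7.49 and 14.3 FPKM (log2 fold change -1.63 ± 0.23) and MRPL34 from 39.9, 42.2 and 34.5 to 6.36, 4.42 and 13.1 FPKM (log2 fold change -2.27 ± 0.30). In NDUFB7, from 87.4, 97.7 and 78.5 to 20.2, 17.8 and 73.8 FPKM (log2 fold change -1.51 ± 0.46), and ATP5IF1, from 28.8, 27.6 and 31.5 to 5.56, 5.801 and 24.6 FPKM (log2 fold change -1.53 ± 0.46), library 3 came near the controls. Without ISP-I library 1, their adjusted p values were 0.0694 and 0.0664, and without control library 3 that of ATP5IF1 was 0.0524.

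Of 59 genes of the nucleolar machinery that makes ribosomes, all tested, 13 were called higher, 22.03% against 10.5% of all genes, and 1 lower (18 and 1 after median-of-ratios scaling), with a median 0.64 above that of all genes and 0.57 to 0.61 above it in single libraries. DDX21, a nucleolar helicase, rose from 110.4, 79.4 and 106 to 334, 444 and 223 FPKM (log2 fold change 1.71 ± 0.25). WDR43, of the small subunit processome, rose from 53.6, 40.1 and 52.98 to 199.7, 235 and 157 FPKM (log2 fold change 1.98 ± 0.19). DDX10 rose from 8.79, 7.68 and 8.39 to 30.6, 36.7 and 25.9 FPKM (log2 fold change 1.78 ± 0.14). BOP1, of large subunit processing, fell from 68.96, 79.7 and 74.2 to 30.9, 24.4 and 32.8 FPKM (log2 fold change -1.32 ± 0.14), and was the only member called lower, against 4 without ISP-I library 1 and 3 without control library 1. Of 42 translation initiation factors, 5 were higher (11.9%, against 10.5% of all genes) and 1 lower. The counts were 9 and 0 after median-of-ratios scaling, and 3 were higher without control library 2. EIF3A rose from 88.02, 64.7 and 96.5 to 254, 375 and 173 FPKM (log2 fold change 1.62 ± 0.28). Proteasome subunits had 0 of 46 called higher and 7 lower, and the lower share of 15.2% was that of all genes. After median-of-ratios scaling 2 were lower, and without ISP-I library 2 it was 4. The median of the list changed sign between both scalings (-0.06 and 0.01). PSMB5, a catalytic subunit, fell from 192, 202 and 167 to 64.5, 51.7 and 114 FPKM (log2 fold change -1.35 ± 0.27).

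**Figure D3:**
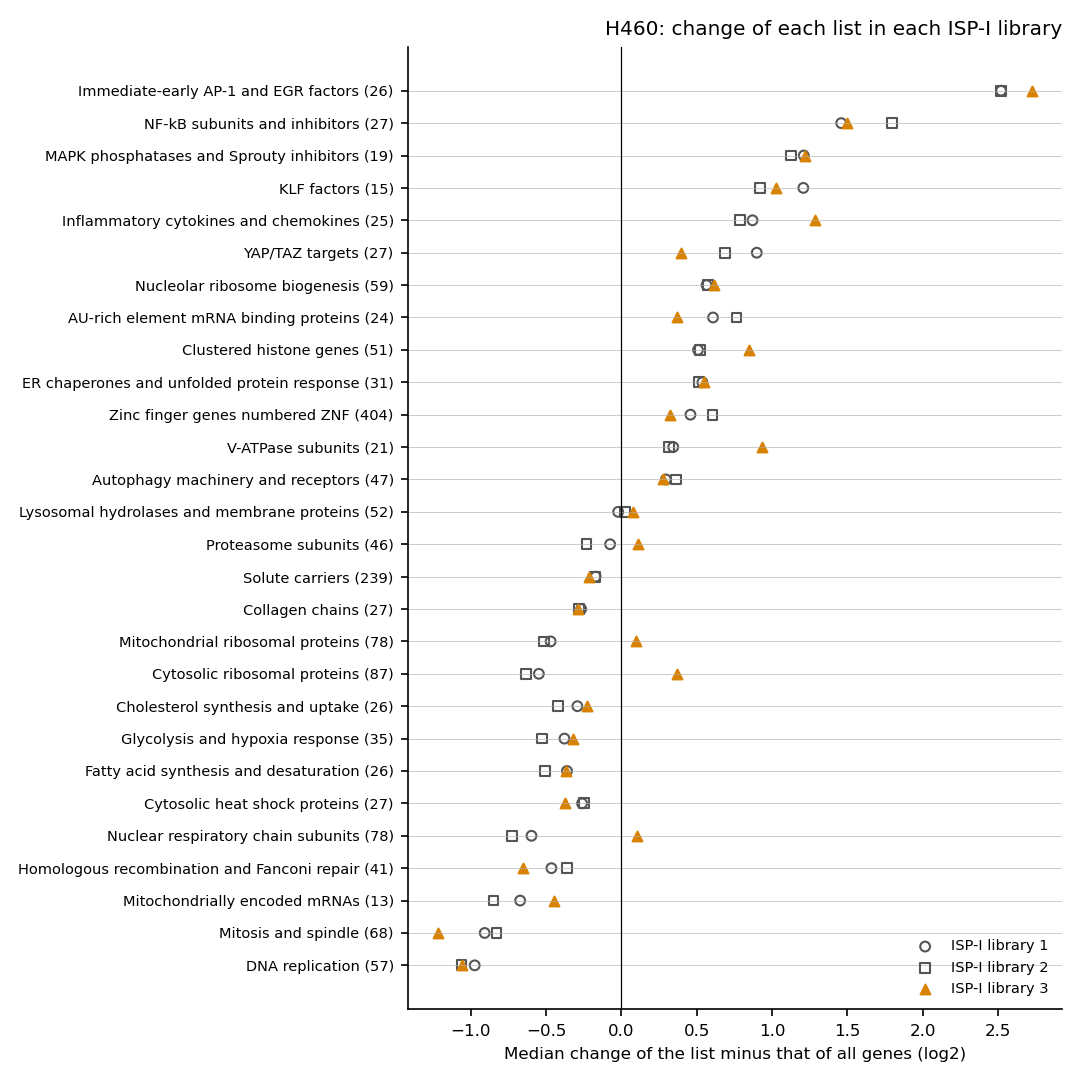
Median log2 change of each gene list minus that of all genes, separately for the 3 ISP-I libraries of H460 against the mean of the controls; the number of tested members is in brackets. Immediate-early factors lie near 2.5 and DNA replication near -1.0 in all 3 libraries, while cytosolic ribosomal proteins are below 0 in libraries 1 and 2 (circles and squares) and above 0 in library 3 (filled triangles).

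DNA replication had the largest share called lower of the lists described here. Of 57 members, all tested, 33 were called lower, 57.9% against 15.2% of all genes, and 1 higher (25 and 1 after median-of-ratios scaling). The median was 1.03 below that of all genes and lay between -0.97 and -1.06 in single libraries. PCNA, the sliding clamp of the replication fork, fell from 234, 223 and 179.6 to 27.4, 25.7 and 26.8 FPKM (log2 fold change -2.94 ± 0.14). RPA1, which coats single-stranded DNA, fell from 44.2, 48.8 and 39.5 to 7.33, 5.87 and 5.595 FPKM (log2 fold change -2.64 ± 0.14). TIMELESS, of the fork protection complex, fell from 54.4, 61.03 and 58.98 to 10.9, 8.87 and 8.17 FPKM (log2 fold change -2.53 ± 0.13), and RRM2, which makes deoxynucleotides, from 82.6, 80.3 and 75.1 to 16.5, 15.3 and 18.7 FPKM (log2 fold change -2.18 ± 0.12). GINS3 was the member that rose, from 8.22, 8.06 and 7.83 to 23.2, 20.7 and 22.01 FPKM (log2 fold change 1.34 ± 0.10).

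Mitosis and spindle genes fell nearly as often, with 37 of 68 tested members called lower (54.4%, against 15.2% of all genes) and 1 higher. The counts were 27 and 1 after median-of-ratios scaling. Many genes of this phase carry the cell cycle homology region (CHR), TTTGAA, near their start. It was in 36 of 57 windows of this list (63.2%), in 19 of the 34 windows of its genes called lower, and in 9.8% of all windows. Over all genes called lower the share was 9.67%. Stretches of 4 members that hold it, in capitals, are shown (RefSeq, GRCh38.p14). All 4 are on the forward strand, PLK1 at chr16:23678848-23678877, CCNB2 at chr15:59105105-59105134, CDCA8 at chr1:37692481-37692510 and KIF23 at chr15:69414282-69414311:
PLK1: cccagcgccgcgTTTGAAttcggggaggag
CCNB2: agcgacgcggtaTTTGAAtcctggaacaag
CDCA8: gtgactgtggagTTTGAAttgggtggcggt
KIF23: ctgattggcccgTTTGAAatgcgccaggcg
PLK1, a mitotic kinase, fell from 63.9, 68.9 and 71.8 to 9.64, 8.63 and 10.4 FPKM (log2 fold change -2.71 ± 0.12). CCNB2, cyclin B2, fell from 33.02, 31.6 and 31.1 to 8.15, 6.83 and 8.45 FPKM (log2 fold change -1.91 ± 0.12). CDCA8, of the chromosomal passenger complex, fell from 40.5, 47.6 and 41.8 to 19.997, 15.2 and 16.9 FPKM (log2 fold change -1.28 ± 0.13), and KIF23, a kinesin of cytokinesis, from 12.9, 9.16 and 10.7 to 4.57, 5.304 and 3.06 FPKM (log2 fold change -1.18 ± 0.19). After median-of-ratios scaling the fold changes of CDCA8 and KIF23 were under 2, and so was that of KIF23 without ISP-I library 3 (-1.0).

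Other mitotic genes fell further. CCNA2, cyclin A2, fell from 63.9, 52.7 and 57.6 to 6.62, 7.32 and 5.297 FPKM (log2 fold change -3.0 ± 0.14). The kinetochore gene SPC24 fell from 16.4, 19.6 and 20.9 to 0.828, 0.656 and 0.831 FPKM (log2 fold change -3.49 ± 0.13), and the kinesin KIF18B from 41.1, 44.02 and 52.4 to 5.14, 3.87 and 4.49 FPKM (log2 fold change -3.09 ± 0.14). TOP2A, which untangles DNA, fell from 56.4, 32.3 and 44.3 to 8.43, 15.1 and 4.46 FPKM (log2 fold change -2.24 ± 0.36), with the highest values of each group in control library 1 and ISP-I library 2. KIF18A was the member that rose, from 4.03, 1.84 and 3.52 to 8.34, 17.4 and 5.12 FPKM (log2 fold change 1.34 ± 0.38), and without ISP-I library 2 its log2 fold change was 0.91, under the threshold. Homologous recombination and Fanconi repair had 15 of 41 called lower (36.6%, against 15.2% of all genes) and 1 higher. The counts were 12 and 1 after median-of-ratios scaling. UBE2T, the ubiquitin enzyme of the Fanconi pathway, fell from 54.5, 50.1 and 42.8 to 6.03, 5.34 and 5.91 FPKM (log2 fold change -2.88 ± 0.12). EXO1, a nuclease of end resection, fell from 113, 98.8 and 108 to 26.3, 25.9 and 18.2 FPKM (log2 fold change -2.15 ± 0.16), while PALB2 rose from 5.29, 4.16 and 4.99 to 15.4, 19.9 and 11.2 FPKM (log2 fold change 1.47 ± 0.19). UHRF1, which keeps DNA methylation through replication, fell from 47.5, 54.6 and 59.6 to 10.2, 8.46 and 9.2995 FPKM (log2 fold change -2.41 ± 0.13).

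Of 51 tested genes of the histone clusters, from 70 listed, 12 were called higher, 23.5% against 10.5% of all genes, and 0 lower, with a median 0.59 above that of all genes. H4C8 rose from 0.996, 0.913 and 1.02 to 12.4, 14.8 and 17.4 FPKM (log2 fold change 2.99 ± 0.14), H2AC6 from 7.92, 6.75 and 6.76 to 32.1, 27.97 and 35.7 FPKM (log2 fold change 2.01 ± 0.13) and H2BC5 from 5.27, 8.69 and 4.85 to 31.7, 32.9 and 39.7 FPKM (log2 fold change 2.33 ± 0.20). The linker histone H1-2 rose from 21.1, 26.5 and 18.2 to 112, 94.4 and 240.1 FPKM (log2 fold change 2.6 ± 0.32), most in ISP-I library 3. Replication-type histone mRNAs normally lack a poly(A) tail, and whether the libraries selected for one was not stated in the sources used here, so levels of these genes may rest on the polyadenylated part. Of 31 tested p53 targets, CDKN1A not among them, 7 were higher (22.6%, against 10.5% of all genes) and 2 lower (6.45%, against 15.2%). After median-of-ratios scaling 9 were higher and 0 lower. AEN, an apoptosis nuclease, rose from 15.6, 18.3 and 16.7 to 134, 118 and 142 FPKM (log2 fold change 2.89 ± 0.13). PLK2, a p53-induced kinase, rose from 29, 28.2 and 28.7 to 115, 120.3 and 105 FPKM (log2 fold change 1.95 ± 0.11).

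**Figure D4:**
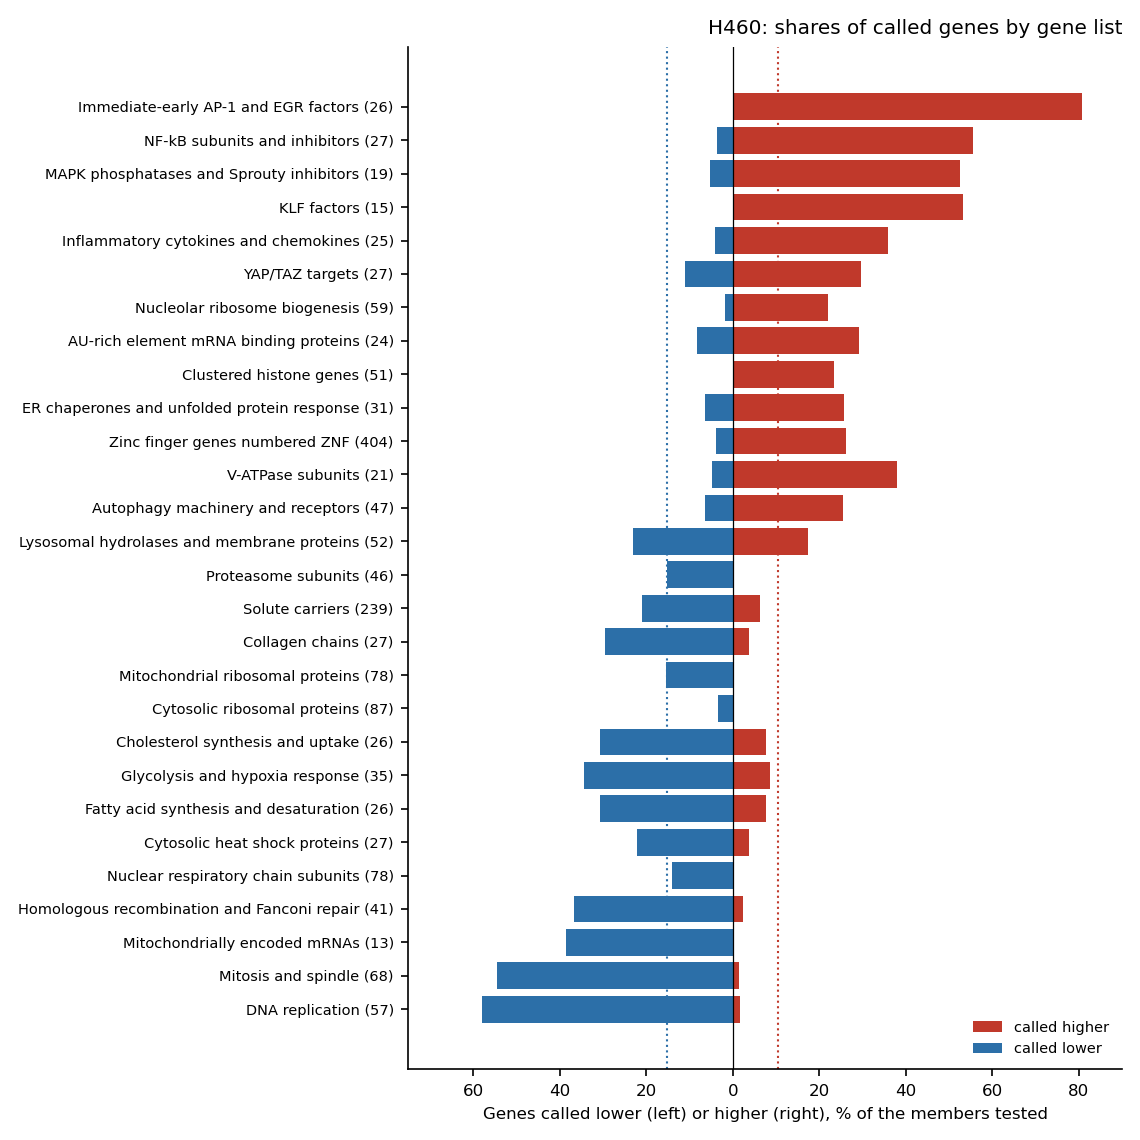
Percentage of tested members of each gene list called higher (red, to the right) or lower (blue, to the left) in H460 after ISP-I, ordered by the list's median change, with the number tested in brackets. Dotted lines mark the shares over all genes, 10.5% higher and 15.2% lower; the bar of the immediate-early factors reaches 80.8% and that of DNA replication 57.9%.

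Genes of the matrix and the cytoskeleton moved in both directions. Of 27 tested collagen chains, 8 were lower (29.6%, against 15.2% of all genes) and 1 higher (3.7%, against 10.5%). After median-of-ratios scaling 5 were lower and 3 higher. The summed level of the collagen chains went from 556 to 563 FPKM in the controls to 95.04 to 110.5 FPKM. Most of this was COL5A2. COL6A1 fell from 23.5, 30.1 and 28.6 to 2.89, 2.13 and 3.12 FPKM (log2 fold change -2.94 ± 0.15). The basement membrane chains COL4A1 and COL4A2, neighbours on chromosome 13, fell from 3.797, 3.58 and 3.52 to 0.305, 0.262 and 0.257 FPKM (log2 fold change -1.86 ± 0.09) and from 6.69, 6.98 and 7.41 to 0.7896, 0.5701 and 0.741 FPKM (log2 fold change -2.24 ± 0.11). COL5A3 rose from 0.0615, 0.0388 and 0.119 to 4.07, 3.56 and 3.95 FPKM (log2 fold change 2.18 ± 0.09). Integrins and laminins had 2 of 30 higher (6.67%, against 10.5% of all genes) and 4 lower (13.3%, against 15.2%). ITGB5 fell from 22.3, 24.1 and 23.6 to 4.96, 4.01 and 4.096 FPKM (log2 fold change -2.19 ± 0.12). LAMB3 rose from 5.25, 5.75 and 4.97 to 22.6, 19.6 and 21.6 FPKM (log2 fold change 1.82 ± 0.11).

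In the plasminogen and metalloprotease list, 6 of 33 tested members were higher (18.2%, against 10.5% of all genes). The 5 called lower were 15.2%, the share of all genes. After median-of-ratios scaling 8 were higher and 3 lower. SERPINB2, an inhibitor of plasminogen activators, rose from 49.4, 44.8 and 87.8 to 146, 143 and 237 FPKM (log2 fold change 1.54 ± 0.29). MMP15 fell from 9.81, 12.2 and 10.7 to 1.63, 1.33 and 1.15 FPKM (log2 fold change -2.33 ± 0.13), and ADAM19, a membrane protease, from 6.04, 6.598 and 6.8999 to 0.261, 0.218 and 0.166 FPKM (log2 fold change -2.63 ± 0.10). Targets of the mechanosensitive factors YAP and TAZ had 8 of 27 higher (29.6%, against 10.5% of all genes) and 3 lower (11.1%, against 15.2%). The counts were 12 and 3 after median-of-ratios scaling, and the median was 0.79 above that of all genes. ANKRD1 rose from 0.349, 0.515 and 0.225 to 36.6, 35.6 and 33.1 FPKM (log2 fold change 4.73 ± 0.12), and the kinase NUAK2 from 5.41, 6.17 and 5.66 to 39.2, 39.02 and 38.3 FPKM (log2 fold change 2.56 ± 0.10). GADD45B, which this list also holds, rose from 6.99, 8.38 and 8.79 to 75.5, 71.1 and 127 FPKM (log2 fold change 3.3 ± 0.22). Of the tubulins, 1 of 14 was higher (7.14%, against 10.5% of all genes) and 3 lower (21.4%, against 15.2%). The list's median was 0.05 above that of all genes, and 2 were higher and 3 lower after median-of-ratios scaling. The common isotype TUBB fell from 284, 301 and 363 to 48.8, 38.4 and 67.9 FPKM (log2 fold change -2.62 ± 0.21), and the neuronal isotype TUBB3 rose from 1.27, 1.61 and 2.14 to 4.74, 5.45 and 7.01 FPKM (log2 fold change 1.33 ± 0.17). The claudin gene CLDN6 went from 0, 0.0379 and 0.0386 to 4.18, 4.49 and 5.46 FPKM (log2 fold change 2.47 ± 0.11), with the other claudins and tight junction genes adding 1 lower to 23 tested. The shares of this list, 4.35% higher and 4.35% lower, were under those of all genes (10.5% and 15.2%).

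Genes of chromatin and RNA control also moved. Of 404 tested zinc finger genes with a ZNF number, 106 were called higher, 26.2% against 10.5% of all genes, and 16 lower (138 and 10 after median-of-ratios scaling). Their median GC content was 43.4%, against 49.1% for all genes, and GC content moved with the calls. With the GC trend of each library removed, 117 were called higher and 9 lower. The median of the list was then 0.42 above that of all genes, against 0.47 without this step. ZNF554 rose from 0.0615, 0.2096 and 0.107 to 17.4, 19.2 and 16.2 FPKM (log2 fold change 4.05 ± 0.12) and ZNF432 from 1.25, 0.638 and 1.29 to 14.5, 23.9 and 11.98 FPKM (log2 fold change 3.07 ± 0.24). Polycomb, SWI/SNF and DNA methylation genes had 4 of 42 higher (9.52%, against 10.5% of all genes) and 11 lower (26.2%, against 15.2%). KDM6B, a demethylase of H3K27, rose from 4.57, 4.41 and 5.54 to 90.6, 102 and 86.4 FPKM (log2 fold change 4.01 ± 0.13). CBX2, a Polycomb reader of the same mark, fell from 31.1, 35.2 and 34.2 to 3.55, 2.67 and 2.69 FPKM (log2 fold change -3.12 ± 0.13). Deacetylases, sirtuins and bromodomain genes had 4 of 36 higher (11.1%, against 10.5% of all genes) and 8 lower (22.2%, against 15.2%). Their median was 0.03 above that of all genes, and after median-of-ratios scaling 7 were higher and 6 lower. Among the members that rose, HDAC9 went from 0.102, 0.09699 and 0.107 to 7.81, 10.7 and 6.099 FPKM (log2 fold change 3.03 ± 0.17). HDAC5 rose from 2.47, 2.46 and 2.61 to 25.7, 23.9 and 28.95 FPKM (log2 fold change 2.95 ± 0.11). SIRT1, an NAD-dependent deacetylase, rose from 6.81, 5.698 and 6.397 to 42.9, 56.9 and 34.7 FPKM (log2 fold change 2.62 ± 0.18).

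Proteins that bind AU-rich elements, and so set how long cytokine and immediate-early mRNAs last, had 7 of 24 higher and 2 lower (10 and 0 after median-of-ratios scaling). The shares were 29.2% higher and 8.33% lower, against 10.5% and 15.2% of all genes. ZFP36 (tristetraprolin), which speeds decay, rose from 16.1, 18.7 and 20.04 to 71.7, 67.9 and 94.3 FPKM (log2 fold change 2.02 ± 0.16). ZC3H12C, a related RNA endonuclease, rose from 2.18, 1.51 and 2.08 to 14.1, 17.1 and 9.82 FPKM (log2 fold change 2.3 ± 0.19). Splicing factors had 1 of 39 higher (2.56%, against 10.5% of all genes) and 5 lower (12.8%, against 15.2%). The counts were 3 higher and 1 lower after the scaling, and 3 higher and 6 lower without ISP-I library 3. Without ISP-I library 1 or 2, 3 were lower. HNRNPA1 fell from 325, 303 and 313 to 95.5, 98.8 and 113 FPKM (log2 fold change -1.61 ± 0.13), and the splicing kinase CLK1 rose from 4.26, 4.74 and 3.99 to 13.4, 15.96 and 11.5 FPKM (log2 fold change 1.45 ± 0.14).

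Of 41 tested interferon-stimulated genes, 3 were higher (7.32%, against 10.5% of all genes) and 9 lower (21.95%, against 15.2%), or 4 and 7 after median-of-ratios scaling, with a median close to that of all genes. OAS3, a sensor of double-stranded RNA, fell from 18.4, 20.3 and 20.9 to 1.08, 0.971 and 0.9496 FPKM (log2 fold change -3.38 ± 0.11), and IFIT2 rose from 0.512, 0.388 and 0.329 to 4.79, 8.33 and 5.74 FPKM (log2 fold change 2.34 ± 0.17). Of 19 genes of MHC class I presentation, 2 were higher (10.5%, the share of all genes) and 4 lower (21.1%, against 15.2%). The counts were 4 and 0 after median-of-ratios scaling, and 2 were lower without ISP-I library 2. HLA-B rose from 5.3002, 5.26 and 5.01 to 20.1, 17.3 and 25.2 FPKM (log2 fold change 1.8 ± 0.14). In the prostaglandin E2 pathway, 1 of 14 was higher (7.14%, against 10.5% of all genes) and 5 lower (35.7%, against 15.2%). The counts were 2 and 2 after median-of-ratios scaling. Without ISP-I library 2, 2 were lower, and without control library 1, 3 were lower. PTGS2 (COX-2) rose from 6.56, 4.902 and 5.76 to 28.6, 35.4 and 24.7 FPKM (log2 fold change 2.17 ± 0.16), while PTGES, the enzyme that acts after it, fell from 80.6, 92.2 and 91.5 to 23.5, 15.9 and 25.7 FPKM (log2 fold change -2.0 ± 0.18).

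Neuronal and secretory granule genes had 7 of 25 higher (28%, against 10.5% of all genes) and 3 lower (12%, against 15.2%). SYP, synaptophysin, rose from 1.11, 1.68 and 1.305 to 12.6, 9.61 and 13.5 FPKM (log2 fold change 2.44 ± 0.15), and CHGB, a granin, from 0.578, 0.281 and 0.272 to 5.71, 5.86 and 6.43 FPKM (log2 fold change 2.35 ± 0.12). CPLX2, a regulator of vesicle fusion, fell from 5.66, 5.63 and 5.09 to 0.311, 0.351 and 0.259 FPKM (log2 fold change -2.3 ± 0.10). NEFL, the light neurofilament, fell from 71.5, 68.9 and 73.2 to 15.1, 14.99 and 11.8 FPKM (log2 fold change -2.28 ± 0.13). Of 239 tested solute carriers, 50 were called lower (20.9%, against 15.2% of all genes) and 15 higher (6.28%, against 10.5%), or 38 and 19 after median-of-ratios scaling. SLC5A6, the vitamin transporter, fell from 29.1, 33.1 and 27.6 to 4.66, 4.598 and 4.7997 FPKM (log2 fold change -2.44 ± 0.11), and SLC25A25, a mitochondrial carrier of ATP-Mg, rose from 8.63, 8.72 and 8.23 to 66.1, 60.5 and 64.7 FPKM (log2 fold change 2.76 ± 0.10). Potassium and calcium channels had 4 of 65 higher (6.15%, against 10.5% of all genes) and 8 lower (12.3%, against 15.2%). KCNF1 rose from 6.94, 6.75 and 8.55 to 36.3, 31.04 and 39.6 FPKM (log2 fold change 2.12 ± 0.14).

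The response of H460 was set against that of A549 by the interaction of line and treatment in all 12 libraries. Of 13953 genes tested, the H460 change was more than 1 (log2) above the A549 change in 827 (5.93%) and more than 1 below it in 1407 (10.1%) (1298 and 825 after median-of-ratios scaling). In A549 itself, 575 of 13705 genes (4.2%) were called higher and 481 (3.51%) lower. For the immediate-early list the difference was positive in 18 of 26 members and negative in 1, and in A549 8 of 25 were called higher. For p53 targets it was positive in 3 of 34 and negative in 11, and in A549 14 of 34 were called higher and 0 lower. Replication and mitosis genes fell in both lines: in A549 14 of 57 and 22 of 69 were called lower.

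The largest positive difference among the genes named was that of INHBA, followed by EGR4, AREG and CXCL8. INHBA in A549 went from 0.00283 ± 0.0049 to 0.236 ± 0.02 FPKM (SD, n = 3), a difference of 6.44 (SE 0.24, adjusted p = 3.1e-09). These A549 levels are under the added 1 FPKM, which draws the fold change of that line toward 0, so a rise there is not excluded. CXCL8 went from 5.27 ± 0.59 to 5.26 ± 0.98 FPKM in A549, with a difference of 4.7 (SE 0.18, adjusted p = 3.9e-09). CXCL2 went from 10.1 ± 0.21 to 9.96 ± 0.065 FPKM there, and its difference 4.08 (SE 0.29, adjusted p = 4e-07). The NF-kB subunit RELB went from 12.9 ± 0.47 to 14.3 ± 0.64 FPKM, with a difference of 4.12 (SE 0.16, adjusted p = 4.3e-09). AREG and NRG1 rose in H460, while in A549 their mean levels after ISP-I lay below those of the controls, AREG from 53.3 ± 0.78 to 30.02 ± 2 FPKM and NRG1 from 13.8 ± 1.3 to 6.69 ± 0.088 FPKM, with differences of 5.31 (SE 0.17, adjusted p = 1.4e-09) and 3.62 (SE 0.17, adjusted p = 1.7e-08). In H460 NRG1 rose from 3.11, 3.03 and 3.18 to 26.7, 29.8 and 20.3 FPKM (log2 fold change 2.68 ± 0.15).

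EGR1 rose in both lines, in A549 from 0.5299 ± 0.21 to 42.1 ± 3 FPKM, and its rise was larger in H460 by 3.05 (SE 0.17, adjusted p = 7.3e-08). EGR4 went from 0.0381 ± 0.066 to 0.546 ± 0.067 FPKM in A549, also under the added 1 FPKM, a difference of 5.48 (SE 0.25, adjusted p = 1.3e-08). The kinase gene DCLK1 rose in H460 from 0.582, 0.5604 and 0.506 to 46.2, 53.1 and 39.4 FPKM (log2 fold change 4.92 ± 0.13), and its difference was 4.45 (SE 0.15, adjusted p = 1.8e-09). NID1, the basement membrane linker nidogen 1, rose in H460 from 2.14, 1.97 and 2.09 to 97.1, 121 and 83.5 FPKM (log2 fold change 5.03 ± 0.15), with a difference of 4.38 (SE 0.17, adjusted p = 4.3e-09). SPRY2, KLF5, TPP1 and HSPA5 had positive differences too, and all 4 changed by less than 1 (log2) in A549.

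Among the genes with a negative difference, some fell further in H460. NOTCH3 in A549 went from 3.12 ± 0.074 to 0.194 ± 0.024 FPKM, a difference of -3.18 (SE 0.10, adjusted p = 1.5e-09). LGALS3BP went from 89.5 ± 11 to 34 ± 1.5 FPKM there, a difference of -3.44 (SE 0.16, adjusted p = 1.5e-08). OLFML2A and SCARA5 had differences of -3.12 and -3.07. In others the lines moved apart. NEFL fell in H460 and rose in A549, from 1.204 ± 0.29 to 11.5 ± 0.88 FPKM, a difference of -4.79 (SE 0.16, adjusted p = 1.8e-09). PTGES did so as well, rising in A549 from 74.5 ± 10 to 149.6 ± 2.4 FPKM, a difference of -3.0 (SE 0.22, adjusted p = 5.1e-07). GOLT1A, a Golgi transport gene, rose in A549 from 1.31 ± 0.34 to 32.7 ± 3.2 FPKM and was at 0, 0 and 0.261 FPKM in H460 controls and 0.163, 0.583 and 0.196 after ISP-I. A further group fell in H460 and changed by less than 1 (log2) in A549. MCAM and ARHGAP4 fell in H460, from 15.5, 17.6 and 18.4 to 2.14, 1.79 and 2.04 FPKM (log2 fold change -2.6 ± 0.12) and from 27.6, 30.3 and 29.9 to 2.17, 2.64 and 3.04 FPKM (log2 fold change -3.07 ± 0.12). SCD and SLC16A3 belonged here too, with differences of -2.23 (SE 0.14, adjusted p = 1.6e-07) and -2.73 (SE 0.22, adjusted p = 1e-06). CPLX2 fell in both lines, in A549 from 142 ± 14 to 5.27 ± 0.3 FPKM, and had a positive difference. Its H460 levels after ISP-I were under the added 1 FPKM, which draws the fold change of that line toward 0. With a pseudocount of 0.1 FPKM its difference was under the threshold.

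**Figure D5:**
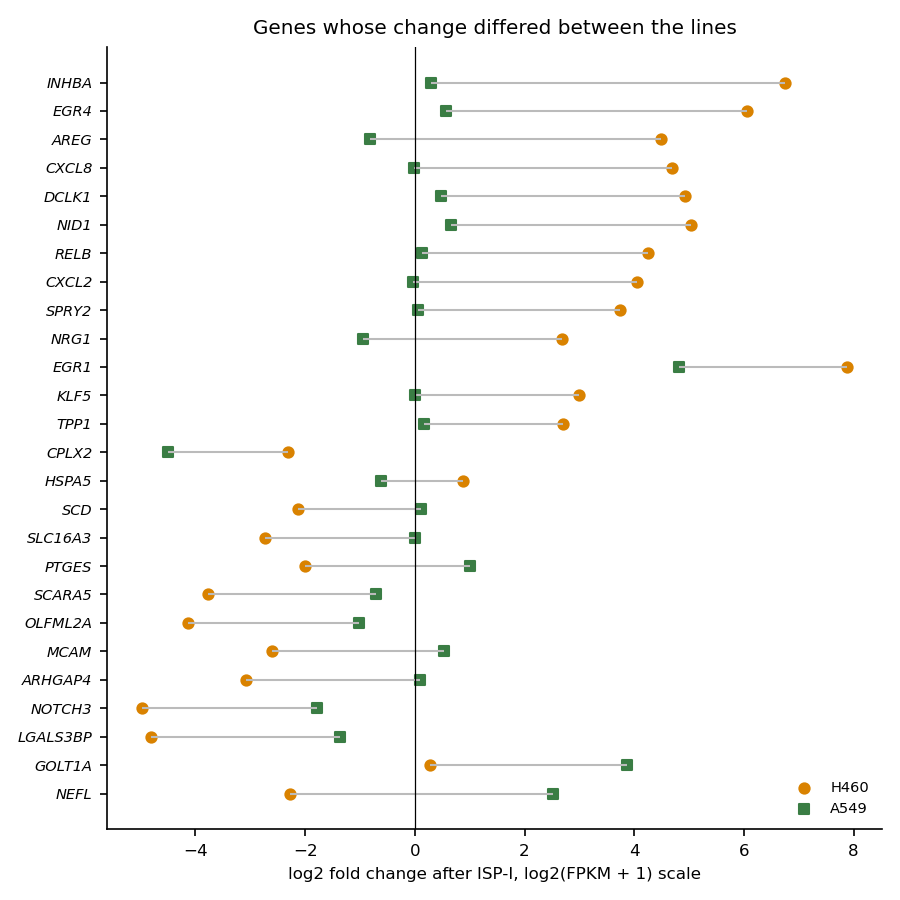
Log2 fold change after ISP-I on the log2(FPKM + 1) scale in H460 (orange circles) and A549 (green squares) for 26 genes whose changes differed between the lines, joined by grey lines and ordered by the difference. INHBA, EGR4 and AREG at the top lie far to the right in H460 only, and NEFL at the bottom lies left of 0 in H460 and right of 0 in A549. The A549 means of INHBA and EGR4 were under 1 FPKM, where the added 1 FPKM draws fold changes toward 0.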

How the data were processed

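RNA of 12 libraries was sequenced, 3 in each group, and the 6 H460 libraries were analysed here. The authors mapped reads to hg38 with HISAT2, counted them with HTSeq 0.9.1 and deposited FPKM; FastQC is also listed, and the annotation and strand setting are not given in the sources used here. The deposited Length column is in another unit, bases. Columns name line and treatment only, so library numbers are their order within a group. The table holds 19973 genes, 4 lines that were pieces of a broken cell being left out.

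Log2(FPKM + 1) was compared with limma 3.58.1 (R 4.3.3, mean-variance trend) in the genes that averaged 0.1 FPKM or more. With this pseudocount, fold changes of low genes are understated. In each library FPKM multiplied by length fell on whole steps of 1 read, so reads were recovered for depth, counting intervals and a limma voom alternative. The interaction used 12 libraries.

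The 53 lists, the members and the named genes were chosen with earlier results of these data known. Named genes were the 12 largest rises and falls (mean of at least 5 FPKM), the 6 largest gains and losses of FPKM, up to 4 called members per list, 8 differences between the lines in each direction, and 5 genes switched on and off; others named were added after their values were seen, and a few genes are not reported here. Alternatives were a pseudocount of 0.1 FPKM, other filters, median-of-ratios and quantile scaling, voom, treat, trends of GC content and length, and leaving out each library. The script was tested on simulated data. Tables used Python 3.11.15, pandas 2.3.3, numpy 2.4.6 and scipy 1.17.1.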

Additional observations from a re-analysis of the deposited data

Results flagged for a closer look

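The effect of ISP-I differed between H460 and A549 by the test of the interaction in 827 genes with a positive and 1407 with a negative difference (H460 change minus A549 change in limma, called as above). Among the genes named above, 15 had a positive difference: INHBA 6.44, EGR4 5.48, AREG 5.31, CXCL8 4.7, DCLK1 4.45, NID1 4.38, RELB 4.12, CXCL2 4.08, SPRY2 3.68, NRG1 3.62, EGR1 3.05, KLF5 2.97, TPP1 2.54, CPLX2 2.2 and HSPA5 1.5. Negative differences were those of SCD (-2.23), SLC16A3 (-2.73), PTGES (-3.0), SCARA5 (-3.07), OLFML2A (-3.12), MCAM (-3.14), ARHGAP4 (-3.17), NOTCH3 (-3.18), LGALS3BP (-3.44), GOLT1A (-3.6) and NEFL (-4.79). All 26 kept their direction and side of the threshold after median-of-ratios scaling and without any single H460 library. The difference of CPLX2 was 0.94 with a pseudocount of 0.1 FPKM, under the threshold.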

How the results depend on the processing

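With a pseudocount of 0.1 FPKM, 2322 genes were called higher and 3464 lower in H460, with limma voom on the recovered reads 3106 and 2728, and with limma treat, which tests against a fold change of 2, 750 and 1052. Quantile normalization gave 1709 and 1671, and GC and length trends, the second chosen after seeing the data, 1724 and 1505 and 1792 and 1587. Leaving out 1 library gave 1327 to 1553 higher and 1965 to 2199 lower. For the difference between the lines, the counts were 1451 positive and 2788 negative with a pseudocount of 0.1 FPKM, 1298 and 825 after median-of-ratios scaling, and 733 to 959 and 1302 to 1688 without 1 library.

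Of 203 genes named, 24 lost their call under at least 1 alternative, all of them under treat, and 0 of 3246 values changed sign. Outside treat and single libraries, MT-CO1 lost it under median-of-ratios and quantile scaling, voom and no filter, CDCA8 and KIF23 under median-of-ratios scaling, and DLL3 and BOP1 with the GC trend removed. Of 583 medians of lists under alternatives, 131 moved by more than the spread between libraries; why was not tested. Genes under about 1 FPKM are limited by depth. No paired analysis was possible because the columns are numbered 1 to 6 within a line and do not carry the labels' replicate numbers, so no control could be matched to an ISP-I library.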

Other observations

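The deposited table also annotates genes with ontology terms, which are broader than the lists above and overlap with them. Of 551 tested genes annotated to DNA-binding transcription factor activity, 116 (21.1%) were called higher and 66 (11.98%) lower, against 10.5% and 15.2% of all genes. Genes of the inflammatory response had 47 of 222 called higher (21.2%) and 26 lower, growth factor activity 18 of 93 (19.4%) and 9 lower, and cytokine activity 22 of 108 (20.4%) and 13 lower. Autophagy had 36 of 170 called higher (21.2%) and 20 lower. After median-of-ratios scaling the share called higher of the transcription factors was again above the lower one, with 145 and 42 genes.

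Metabolic and mitochondrial terms had more genes called lower than higher, and so had all genes together (15.2% lower and 10.5% higher). Of 1388 tested mitochondrial genes, 279 (20.1%) were called lower and 83 higher, and of 418 genes of the mitochondrial inner membrane 80 (19.1%) and 7, but 38 and 10 after median-of-ratios scaling. Carbohydrate metabolism had 47 of 183 called lower (25.7%) and 9 higher (33 and 11 after the scaling), and lipid metabolism 95 of 438 (21.7%) and 38 (65 and 48). Signalling and migration terms had calls in both directions, and their excess of lower calls depended on the scaling. GTPase activators had 48 of 221 called lower (21.7%) and 24 higher, serine/threonine kinases 74 of 356 lower (20.8%) and 40 higher, and cell migration 48 of 216 lower (22.2%) and 28 higher. Epithelial cell differentiation had 15 of 54 called lower (27.8%) and 6 higher. After median-of-ratios scaling GTPase activators had 31 higher and 36 lower, serine/threonine kinases 58 higher and 51 lower of 357, cell migration 37 higher and 39 lower, epithelial cell differentiation 7 higher and 9 lower of 55, and the mitochondrial genes had 116 higher and 172 lower of 1384. A gene can carry several of these terms.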
